A study of Mus musculus with 12 samples.

Results

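The RNAs described here left their starting level in opposite directions at day 3 and at day 14 after a crush of the mouse sciatic nerve. They were chosen from the deposited log2 table among its 90752 probes: a probe had to lie at least 1 log2 unit (2-fold) below the day 0 mean at day 3 and at least 1 above it at day 14, or the reverse. It also had to be well above background, the scanner software's own call, on all 3 arrays of the brighter of day 3 and day 14. This gave 275 probes, 0.303% of the array. Of these, 156 were lower at day 3 and higher at day 14 (lower then higher), and 119 were higher at day 3 and lower at day 14 (higher then lower). The day 3 and day 14 differences chose the probes, so they are given below as a description with no test. The day 7 arrays took no part in the choice, although day 7 is compared with the same day 0 arrays that did.

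The study took the distal 0.5 cm of sciatic nerve from C57Bl6 mice aged about 2 months, at day 0, day 3, day 7 and day 14. Every group, day 0 included, carries the same description of surgery in the labels: a crush of the right nerve at the upper thigh for 30 s, with a ligature left as a marker. Whether the day 0 nerves were harvested directly after the crush is not stated in the sources used here, and no sham group was analysed here. Each day had 3 pools of 6 mice, 18 mice a day and 72 in all, and each pool went on 1 one-colour array (Cy3), so the spread between arrays is that between pools. The 12 arrays lay on 3 slides: slide 1 held replicates 1 and 2 of day 0 and of day 3. Slide 2 held replicate 3 of both days and replicates 2 and 3 of day 7. Slide 3 held replicate 1 of day 7 and all of day 14.

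After a crush, axons beyond the injury break down while the sheath around them stays in place. Schwann cells there leave their myelinating state and divide, macrophages enter and clear myelin debris, and later axons grow back and are wrapped in myelin again. Long non-coding RNAs, the transcripts the array was designed for, are not translated, and some act on the expression of other genes in the nucleus or the cytoplasm. The values come from bulk tissue, in which fewer cells of a type and less RNA per cell cannot be told apart.

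The files pair no probe with a gene name or a position in a genome, so the probes are given by ID and sequence, and the labelled tissue could not be checked against its marker genes. None of the 275 probes shared 25 bases with any of the 32851 RefSeq promoter windows or 2743 miRNA sequences at hand (GRCm38.p6). The probes are 60 bases long and are printed 5′ to 3′. The first pair is lower then higher and the next pair is higher then lower; they had the largest weaker difference (the smaller of the day 3 and day 14 differences) in their class among probes well above background on all arrays of days 0, 3 and 14, with no overlap between these days. Capitals mark AATAAA, the usual polyadenylation signal.
MOUSELNCRNA_87445: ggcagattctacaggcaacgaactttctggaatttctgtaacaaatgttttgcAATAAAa
MOUSELNCRNA_63243: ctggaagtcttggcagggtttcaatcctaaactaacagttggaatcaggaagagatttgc
MOUSELNCRNA_73205: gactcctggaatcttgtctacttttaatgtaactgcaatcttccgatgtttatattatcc
MOUSELNCRNA_47077: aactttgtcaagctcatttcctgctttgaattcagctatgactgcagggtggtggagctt

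The other 4 named probes had the largest rises (the first pair) and falls (the second pair) among members called at day 7.
MOUSELNCRNA_8079: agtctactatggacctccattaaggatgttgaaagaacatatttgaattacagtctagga
MOUSELNCRNA_12111: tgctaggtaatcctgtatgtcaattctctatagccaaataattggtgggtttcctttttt
MOUSELNCRNA_78285: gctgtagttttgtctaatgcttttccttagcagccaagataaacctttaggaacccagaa
MOUSELNCRNA_77348: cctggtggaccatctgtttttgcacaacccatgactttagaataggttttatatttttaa

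Between 61.9% and 77.3% of the probes of an array were well above background, with the highest shares on slide 1 (71.2% to 77.3%), and no probe was saturated. Levels below are log2 processed signals scaled so that each array has the same 75th percentile. On this scale the median of the 62803 tested probes (those well above background on every array of some day) differed from day 0 by 0.03, -0.11 and -0.13 at days 3, 7 and 14, and in the deposited table by 0.02, -0.01 and 0.01. All 275 probes were among those tested. In the deposited table the columns of day 7 replicates 2 and 3 were exchanged: each differed by at most 0.011 from the other's scanner values and correlated at 0.9931 with its own. Both are day 7 arrays of slide 2, so the exchange changes no mean over the 3 day 7 arrays; where 1 of them is left out below, it is numbered as in the scanner files.

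The lower-then-higher probes had a median log2 level of 6.36 at day 0, 4.74 at day 3, 6.66 at day 7 and 7.90 at day 14. Their scaled day 3 minus day 0 difference had a median of -1.62 (range -4.11 to -0.98) and their day 14 minus day 0 difference a median of 1.25 (0.51 to 4.86). The fall was the larger of the deposited differences in 116 probes and the rise in 40. At day 14 the level was a median 7.63-fold that of day 3, with a range of 3.16 to 77.0. This includes 45 probes well above background on no day 3 array, whose folds are not measured sizes and are given as bounds below. Falls beyond 3 log2 units at day 3 occurred in 16 probes, and rises beyond 3 at day 14 in 4.

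The higher-then-lower probes had median log2 levels of 6.74, 8.19, 5.69 and 4.95 at days 0, 3, 7 and 14. Their day 3 difference from day 0 had a median of 1.28 (0.94 to 5.75) and their day 14 difference a median of -1.65 (-2.72 to -1.07). Here the later leg was the larger in 86 probes and the earlier in 33. The day 3 level was a median 8.06-fold that of day 14 (4.41 to 143). This includes 50 probes well above background on no day 14 array, whose folds are not measured sizes and are given as bounds below. Only 4 of the 119 exceeded a log2 rise of 3 at day 3.

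Most members were close to the threshold of 1. The weaker of the deposited differences had a median of 1.26 in the lower-then-higher class (highest 2.71) and 1.16 in the other (highest 1.97), and it reached 2 in 11 and 0 probes. The lower-then-higher probes nearest the threshold had weaker differences of 1.0033, 1.0035 and 1.0048, and the nearest excluded ones 0.9966, 0.9951 and 0.9936. For higher then lower the values were 1.0023, 1.0070 and 1.0089 inside and 0.9998, 0.9997 and 0.9970 outside. Between 0.8 and 1 lay a further 109 and 142 probes, and opposite directions of any size were shown by 10423 and 11499.

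On the dim side many values were bounds. At day 3, 45 of the 156 lower-then-higher probes were well above background on no array, 40 on some and 71 on all. For the 45, the day 14 level was at least 5.39-fold higher at the median (bounds of 2.55 to 26.7), where the dim level on each array was the dimmest signal still called well above background, or the probe's own where that was brighter. At day 14, 50 of the 119 higher-then-lower probes were on no array well above background, 10 on some and 59 on all. Their bound for day 3 over day 14 was at least 3.39-fold at the median (1.14 to 36.0). Day 0, the level both legs are measured from, was well above background on all arrays for 134 and 89 probes and on none for 2 and 1.

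The spread between arrays differed between the classes. All arrays of days 3 and 14 lay on their own side of all day 0 arrays in 133 of the 156 lower-then-higher probes, a pattern shown by 2.83% of tested probes. It held in 64 of the 119 higher-then-lower probes, against 2.19% of tested probes; both shares follow from the selection and are not tests. The fall at day 3 was free of overlap in 150 of the first class (25.7% of tested probes) and the rise at day 3 in 68 of the second (25.1%). The rise at day 14 was so in 136 (25.3%) and the fall at day 14 in 102 (34.7%). The SD of the 3 day 0 arrays had a median of 0.19 in the lower-then-higher class, 0.77 in the higher-then-lower class and 0.19 over all tested probes. An SD over 1 on some day was found in 23 and 55 members.

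MOUSELNCRNA_87445 had log2 levels of 10.32, 10.35 and 10.51 at day 0, 7.91, 7.82 and 7.89 at day 3, 11.04, 10.49 and 11.15 at day 7, and 12.33, 12.08 and 12.24 at day 14. The arrays of days 0, 3 and 14 fell into separate ranges, with SDs of 0.10, 0.05 and 0.13 (n = 3 each). Its mean was 5.73-fold lower at day 3 than at day 0 and 3.54-fold higher at day 14, a 20.3-fold span. At day 7 it was 0.50 ± 0.16 log2 units (SE) above day 0, a call by limma (adjusted p = 0.0239) that was lost with the slide as a block (0.36, adjusted p = 0.201) and on leaving out 4 arrays singly: day 0 replicate 1 (0.47) or 2 (0.48), or day 7 replicate 1 (0.43) or 3 (0.38). Within slide 2, which has 1 day 0 array against 2 of day 7, the difference was 0.31; such within-slide differences are given without a test, since a lone array shows no spread of its own.

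MOUSELNCRNA_63243 had levels of 6.08, 6.35 and 6.93 at day 0 and 4.81, 4.62 and 4.60 at day 3. It had 7.14, 6.38 and 7.01 at day 7 and 8.80, 8.62 and 8.53 at day 14. The day 7 arrays overlapped those of day 0, and the difference of 0.39 ± 0.23 (SE, limma adjusted p = 0.182) was not called. Within slide 2 it was -0.23. Without day 0 replicate 3 it was called (0.63, adjusted p = 0.0268), as it was without day 7 replicate 2 (0.62, adjusted p = 0.0441).

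MOUSELNCRNA_73205 was bright throughout: 13.58, 13.85 and 14.04 at day 0, 15.76, 15.29 and 16.22 at day 3, 13.15, 13.09 and 13.97 at day 7, and 12.05, 12.07 and 12.02 at day 14. Its day 3 arrays were all above and its day 14 arrays all below the other days. The mean was 3.82-fold higher at day 3 than at day 0 and 3.43-fold lower at day 14. The day 7 difference, -0.42 ± 0.26 (SE, limma adjusted p = 0.211), was not called; without day 7 replicate 3 it was (-0.70, adjusted p = 0.0407). With the slide as a block the day 14 difference was -1.73, near the -1.78 without it.

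MOUSELNCRNA_47077 showed the split between slides found in much of its class. Its levels were 8.36 and 8.11 on slide 1 and 6.68 on slide 2 at day 0, and 9.68 and 9.46 on slide 1 and 8.91 on slide 2 at day 3. At day 7 they were 6.52, 6.33 and 6.45 and at day 14 5.71, 6.12 and 5.92. The day 0 array of slide 2 thus lay close to the day 7 arrays and far below its own group. The day 14 difference from day 0 was -1.80 without and -1.19 with the slide as a block. At day 7 it was -1.28 ± 0.37 (SE, limma adjusted p = 0.0162), and with the block -0.59 (adjusted p = 0.102); within slide 2 the difference was -0.29. The call was also lost without day 0 replicate 1 (-0.96) or 2 (-1.08).

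The selection did not use the day 7 arrays, but it did use the day 0 arrays with which day 7 is compared. In both classes the shares of members called at day 7 are therefore not independent of the rule. Among the lower-then-higher probes the day 7 level was close to the starting level: the median difference from day 0 was 0.00, with 78 probes above and 78 below. By limma, 34 were called higher than day 0 (21.8%, against 20.4% of all tested probes), 31 were called lower (19.9%, against 24%) and 91 were not called. Calls in either direction made up 44.4% of tested probes. On this scale the members' shares are near those over the whole array. With quantile normalization the rises stayed near it (37 members, 23.7%, against 25%) and the falls did not (18 members, 11.5%, against 20.3%). The 34 had a median change of 0.77 (0.44 to 2.24) and the 31 a median change of -1.22. With the slide as a block, 19 of the 34 and 28 of the 31 were called in the same direction, and none in the other.

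Those called higher at day 7 had lost a median 1.24 log2 units by day 3 and those called lower a median 2.00, while at day 14 the medians were 1.35 and 1.25 above day 0. Both the day 3 and the day 7 differences use the same day 0 arrays. The probes called lower were also dimmer, with median levels of 3.71 at day 3 and 4.42 at day 7, against 6.00 and 7.94. With only probes well above background on all arrays, 9 were called lower and 22 higher. Of all 52853 probes passing this filter, 12623 were called lower and 11893 higher. How many members passed it is not given here, so their counts cannot be read as shares. Over the 71 probes well above background on all day 3 arrays, a median 60.1% of the way from the day 3 to the day 14 level had been covered at day 7.

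Among the higher-then-lower probes the day 7 mean was below day 0 in 109 of 119, with a median difference of -0.80. Limma called 36 lower (30.3%, against 24% of tested probes) and 0 higher, and at an unadjusted p under 0.05 there were also 0 higher, with 38 lower. The called falls had a median of -1.36 (-0.53 to -3.18). Over the 59 probes well above background on all day 14 arrays, a median 78.3% of the way from day 3 to day 14 had been covered at day 7. This share was taken without the slide as a block. With the block, the median differences from day 0 over all 119 were 1.28, 0.26 and -0.58 at days 3, 7 and 14. With quantile normalization 32 were called lower (26.9%, against 20.3%) and 0 higher.

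This result depended on the slide. With the slide as a block 25 of the 119 were called higher (21%, against 16.8% of tested probes) and 14 lower (11.8%, against 20.7%), and the median difference turned from -0.80 to 0.26. All 25 came from probes that were not called without the block, and 13 of the 36 falls kept their call. Within slide 2 the median difference was 0.30. Without day 0 replicate 3, the slide 2 array, 73 probes were called lower, and 20984 of all tested probes. Without day 0 replicate 1 or 2 there were 21 and 22, and 11260 and 11075 of all tested probes. With every array in, 15075 of all tested probes were called lower, so their count moved the same way. The lower-then-higher class had 22 called higher and 36 lower with the block, and a median of -0.08. For that class the count of rises fell to 22, 21, 18 and 20 without day 0 replicate 1, day 0 replicate 2, day 7 replicate 1 and day 7 replicate 3. Over all tested probes the rises then numbered 10175, 10274, 11011 and 10639, against 12840 with every array in.

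Of the named day 7 rises, MOUSELNCRNA_8079 stood at 2.81, 2.99 and 3.33 at day 0, well above background on none of these arrays, at 1.70, 1.18 and 2.02 at day 3, at 5.54, 4.83 and 5.47 at day 7 and at 7.90, 7.79 and 8.01 at day 14. The arrays of days 7 and 14 were all above those of the earlier days. The day 7 level was at least 3.17-fold higher than at day 0 (limma adjusted p = 2.84e-05), and the day 14 level at least 15.3-fold that of day 3, when the probe was also well above background on no array. The call held with the slide as a block (adjusted p = 0.000617).

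MOUSELNCRNA_12111 had 3.99, 4.05 and 3.98 at day 0 (well above background on 2 of the 3 arrays), 2.26, 2.63 and 2.65 at day 3 (on none), 5.81, 5.42 and 5.68 at day 7 and 6.11, 5.78 and 6.41 at day 14. Days 7 and 14 overlapped in range and both lay above the earlier days. The rise to day 7 was 1.63 ± 0.17 log2 units (SE, limma adjusted p = 2.51e-05), and it held with the slide as a block (1.49, adjusted p = 0.00104).

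MOUSELNCRNA_78285, a lower-then-higher probe, had 6.25, 6.01 and 6.31 at day 0, 2.33, 2.67 and 2.07 at day 3, 2.01, 1.78 and 2.17 at day 7, and 7.06, 7.77 and 6.24 at day 14. It was well above background on no array of days 3 and 7 and on all arrays of days 0 and 14, and the day 14 range reached down to that of day 0. The day 0 level was at least 4.7-fold that of day 7 (limma adjusted p = 2.01e-06), also called with the slide as a block (adjusted p = 0.000183).

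MOUSELNCRNA_77348, a higher-then-lower probe, had 6.50, 6.22 and 6.63 at day 0, 7.95, 8.41 and 8.18 at day 3, 3.70, 2.00 and 4.10 at day 7 and 4.55, 4.20 and 4.25 at day 14. At day 7 1 array, and at day 14 none, was well above background. All day 7 arrays were below all day 0 arrays, and limma called the fall (adjusted p = 0.00014), also with the slide as a block (adjusted p = 0.0019). Its fitted size, -3.18 ± 0.42 log2 units (SE), rests on signals of which 1 of 3 was measured above background, and the days 7 and 14 have no order. The day 3 level was at least 12.5-fold that of day 14.

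The slide was then set against both legs. The day 3 leg can be read within a slide, and on slide 1 and on slide 2 alike all 156 and all 119 probes kept their direction. The medians on slides 1 and 2 were -1.48 and -1.95 for lower then higher and 1.15 and 1.57 for higher then lower. The same arrays gave the day 3 difference that the rule used, so this agreement is no independent check. The day 14 arrays share a slide with no day 0 or day 3 array. Day 14 and slide 3 are linked to the rest only through the single day 7 array of that slide.

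The day 0 level itself differed between slides in the higher-then-lower class. Slide 2 minus slide 1 had a median of -1.33 there, while the median was 0.17 in the lower-then-higher class and 0.03 over all tested probes. The slide 2 array was below both slide 1 arrays in 103 of 119 probes, against 33 of 156 in the other class and 40.6% of tested probes. A deficit of more than 1 occurred in 75 of the 119, in 4 of the 156 and in 8.29% of tested probes. On the day 0 arrays the class median was 7.02 and 7.06 on slide 1 and 5.87 on slide 2; on the day 3 arrays it was 8.60, 8.38 and 7.99. It was 5.49 on the slide 3 array of day 7 and 6.05 and 5.95 on those of slide 2, and 4.95, 5.0 and 4.92 at day 14. In the lower-then-higher class the medians were 6.26, 6.35 and 6.41 at day 0, 4.79, 4.89 and 4.43 at day 3, 6.68, 6.39 and 6.69 at day 7, and 7.96, 7.82 and 7.76 at day 14. The arrays of a day were thus within 0.5 of each other there, while day 0 of the other class was split by slide. The day 0 mean took part in the selection, so these shares are a description. Its part in the result was not tested.

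Against the day 0 array of slide 2 alone, day 14 differed by a median of -0.78 in the higher-then-lower class. Over all tested probes this median was -0.07. Against the day 0 arrays of slide 1 the class median was -2.03. For lower then higher the corresponding medians were 1.17 and 1.31. All of these arrays took part in the selection, so the values are a description.

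With the slide as a block in the fit, 154 of 156 lower-then-higher probes and 85 of 119 higher-then-lower probes kept the day 14 direction. Days 0 and 3 are spread alike over the slides, so the block cannot change the day 3 difference and does not check it. Both differences were 1 or more in 69 and 43 with the block, against 118 and 112 on the same scaled values without it. The median day 14 difference moved from 1.25 to 0.95 in the first class and from -1.65 to -0.58 in the second. A second reading, the day 7 minus day 0 difference within slide 2 added to the day 14 minus day 7 difference within slide 3, kept the day 14 direction in 150 and 81 probes, with medians of 0.88 and -0.47. Every within-slide step had the member's direction (day 3 on slides 1 and 2, day 7 to day 14 on slide 3, and the added steps) in 145 and 71 probes.

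The 34 higher-then-lower probes whose day 14 direction turned under the block had a day 0 level on slide 2 that was below slide 1 by a median of -1.76, and the 85 that kept it by -1.06. On slide 3 alone the step from day 7 to day 14 was -0.25 in the 34 and -0.74 in the 85. The fit with the block is made from these same values, so such contrasts follow from the split and are no test. The day 7 array of slide 3 was itself below both day 7 arrays of slide 2 in 73 of the 119 and above both in 89 of the 156.

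Several members read the same or near-identical sequence and are not independent of each other. At 25 shared bases, 17 lower-then-higher members fell into 7 groups and 10 higher-then-lower members into 4, and no group held both classes. Counting each group once left 146 and 113. The largest group in each class had 4 probes, shown here as one member group whose values move together; capitals mark the stretch all 4 share, 38 bases in the lower-then-higher group. These groups were picked after their values were seen.
Lower-then-higher, probe 1: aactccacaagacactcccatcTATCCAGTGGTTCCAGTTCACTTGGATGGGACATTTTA
Lower-then-higher, probe 2: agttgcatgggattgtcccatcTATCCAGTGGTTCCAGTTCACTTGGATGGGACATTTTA
Lower-then-higher, probe 3: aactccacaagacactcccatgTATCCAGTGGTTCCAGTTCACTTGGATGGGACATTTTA
Lower-then-higher, probe 4: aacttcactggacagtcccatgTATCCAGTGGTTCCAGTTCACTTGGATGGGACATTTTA

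The median of these 4 was 7.84, 8.51 and 8.63 on the day 0 arrays, 6.59, 7.30 and 5.42 at day 3, 8.55, 7.20 and 8.61 at day 7 and 11.49, 9.47 and 7.90 at day 14. The day 14 arrays were spread over more than 3 log2 units and the lowest was within the day 0 range, so the rise rested on replicates 1 and 2. The SD at day 14 was 1.79 to 1.83 in each of the 4 probes. None was called at day 7 (limma adjusted p of 0.777 to 0.906).

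In the higher-then-lower group of 4 the shared stretch was 33 bases.
Higher-then-lower, probe 1: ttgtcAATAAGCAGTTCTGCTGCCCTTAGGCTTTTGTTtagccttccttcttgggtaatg
Higher-then-lower, probe 2: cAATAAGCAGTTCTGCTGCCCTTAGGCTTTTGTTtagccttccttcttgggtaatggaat
Higher-then-lower, probe 3: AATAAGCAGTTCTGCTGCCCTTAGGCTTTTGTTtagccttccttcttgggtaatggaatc
Higher-then-lower, probe 4: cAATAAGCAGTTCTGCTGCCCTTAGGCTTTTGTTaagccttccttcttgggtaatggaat

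Their median was 9.95 and 10.02 on slide 1 and 8.78 on slide 2 at day 0, and 11.01, 10.97 and 9.88 at day 3. It was 9.19, 9.06 and 9.18 at day 7 and 8.39, 8.50 and 8.50 at day 14. At both early days the slide 2 array was about 1 log2 unit below the others, and the step from day 0 to day 3 was alike on the slides (0.98 to 1.03 on slide 1 and 1.07 to 1.13 on slide 2 over the 4 probes). From day 0 to day 7 within slide 2 the 4 differed by 0.30 to 0.35, against -0.54 to -0.43 over all arrays.

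A looser link, 14 shared bases, joined 12 of the 119 higher-then-lower probes (10.1%) into one family, the largest; the 12 other groups found this way had at most 4 members. MOUSELNCRNA_47077 is one of the 12. Of these 12 probes, 6 hold the stretch CTGGTATGAC, found in 15 of the 90752 probes of the array; the 6 are shown with it in capitals.
Family probe 1: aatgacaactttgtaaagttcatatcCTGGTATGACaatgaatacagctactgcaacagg
Family probe 2: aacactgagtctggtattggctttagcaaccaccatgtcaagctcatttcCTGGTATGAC
Family probe 3: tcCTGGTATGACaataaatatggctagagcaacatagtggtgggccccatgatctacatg
Family probe 4: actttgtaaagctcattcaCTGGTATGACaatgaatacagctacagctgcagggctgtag
Family probe 5: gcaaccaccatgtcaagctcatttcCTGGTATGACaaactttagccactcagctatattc
Family probe 6: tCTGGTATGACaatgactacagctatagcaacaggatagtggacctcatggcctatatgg

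The 12 sequences overlap in part and none is identical to another. Whether each probe reads its own RNA or that of a related copy, and whether that RNA is non-coding, was not tested, so the family's levels cannot be assigned to one RNA. The median level of the family was 9.62 and 9.38 on slide 1 and 7.72 on slide 2 at day 0, 10.84, 10.64 and 9.76 at day 3, 7.23, 7.23 and 7.42 at day 7, and 6.37, 6.95 and 6.62 at day 14. In all 12 the day 0 array of slide 2 was below both slide 1 arrays, by a median of -1.55 (slide 2 minus slide 1, -2.60 to -0.39). The family's day 14 difference had a median of -1.84 (-2.72 to -1.11) without and -1.11 (-2.89 to -0.12) with the slide as a block, below 0 in all 12 either way. By the added within-slide steps it had a median of -0.86 (-2.53 to 0.41), below 0 in 11. At day 7 limma called 11 of the 12 lower without the block, against 24% of tested probes. The 12 are linked by shared bases, so these calls do not count as 11 separate results. The rule used the same day 0 arrays, so the share called is not independent of the selection. With the slide as a block, 13 of the 36 falls called in the whole class kept their call, and MOUSELNCRNA_47077 of this family lost it. Within slide 2 the family's day 7 minus day 0 median was -0.27 (-0.51 to 0.01).

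A further 12 tested probes outside the class shared at least 16 bases with the family. Of these, 11 had the same pair of directions, day 3 above and day 14 below day 0, with medians of 1.32 and -0.67, so the later leg was under the threshold. Their day 0 level on slide 2 minus slide 1 had a median of -0.01. In the class without the family, 73 probes kept both directions under the slide block, and the day 0 difference between slides had a median of -1.28.

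One pair of lower-then-higher members reads opposite strands of a single stretch. Over 55 bases, in capitals, the second sequence is the reverse complement of the first.
Strand probe 1: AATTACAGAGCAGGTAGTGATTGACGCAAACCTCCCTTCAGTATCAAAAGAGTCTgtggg
Strand probe 2: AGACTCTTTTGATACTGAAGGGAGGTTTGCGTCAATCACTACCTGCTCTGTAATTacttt

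The first had 7.39, 7.29 and 7.32 at day 0, 6.37, 6.20 and 6.45 at day 3, 7.67, 7.35 and 7.59 at day 7 and 8.87, 8.57 and 8.87 at day 14. The second had 10.83, 10.65 and 10.87, then 9.38, 9.09 and 9.78, then 10.96, 10.35 and 10.77, and at day 14 12.05, 11.98 and 11.96. Both were lowest at day 3 and highest at day 14 on every array, and neither was called at day 7 (limma adjusted p = 0.203 and 0.705). Whether both strands were present as RNA was not tested.

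In base composition the classes were close to the array. The GC content had a median of 38.3% in the lower-then-higher class, 41.7% in the higher-then-lower class and 41.7% over all tested probes. The motif AATAAA was searched on both strands; it occurred on the probe's own strand in 19 of 156 (12.2%) and 19 of 119 (16%) members and in 16% of tested probes, and on the opposite strand in 5.77%, 1.68% and 4.19%. A share of 25 bases with any other probe of the array was found in 12.8%, 17.6% and 16.5%.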

How the data were processed

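The members and every list here were chosen with earlier results of these data known. The scanner files hold spot intensity values that the authors made with Agilent Feature Extraction (10.7 per the submitters' processing notes, 10.7.1.1 per the file headers), background-subtracted within each array and not normalized between arrays. The deposited table holds log2 values; each column has a median of 6.42 and differs by at most 0.026 from quantile-normalized log2 scanner signals, with the columns of day 7 replicates 2 and 3 exchanged. It gave the membership, the larger and weaker differences of a member, the ranking of named probes and an alternative day 7 fit; its probes are not centred.

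For the levels and tests, control spots and spots marked as outliers were left out, repeated spots averaged, and the log2 processed signals scaled to a common 75th percentile (9.34). Limma 3.58.1 (R 4.3.3) fitted 1 mean per day over 12 arrays (8 residual degrees of freedom). P-values were Benjamini-Hochberg adjusted over 62803 tested probes, with calls below 0.05. On simulated day 7 against day 0 data (62793 probes) the fit recovered 4%, 56%, 76% and 96% of log2 changes of 0.5, 1, 2 and 4, with 6 false calls. The simulated noise was independent between arrays and held no slide effect. In the real data the estimated correlation within a slide was 0.56. The simulation therefore does not measure the rate of false calls in these data. Slide was read from the files; a slide block links day 14 to the rest through 1 array. Sequence work used Python 3.11.15, pandas 2.3.3 and networkx 3.6.1.

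Named probes are the first 2 of each class by the weaker deposited difference, among members measured (not dim, not saturated) on all 9 arrays of days 0, 3 and 14 whose groups do not overlap, and the 2 largest called rises and falls at day 7. The planned gene lists and cell type markers need gene names and were not run. Alternatives are given in the closing section.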

Additional observations from a re-analysis of the deposited data

How the results depend on the processing

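Applied with other settings, the rule gave these numbers of lower-then-higher and higher-then-lower probes, against 156 and 119: 36 and 26 with normexp background correction and quantile normalization, 71 and 59 when all 9 arrays had to be well above background, 265 and 261 at a threshold of 0.8, and 46 and 10 at 1.5. With the slide as a fixed block there were 86 (64 of them members) and 105 (43 of them members). Leaving out 1 array gave 151 to 171 and 72 to 374; the 72 came without day 0 replicate 3 and the 374 without day 3 replicate 3, the slide 2 arrays of those days. Added after the data were seen, day 0 and day 3 from slide 1 alone gave 195 higher-then-lower probes (94 members) and from slide 2 alone 72 (37 members). The scaled scanner values gave 120 and 177, which moves the split between the classes.

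At day 7, lower-then-higher members called higher (34) numbered 22 with only probes well above background on all arrays, 22 with the slide block, 11 within slide 2, and 18 to 35 with 1 array left out. Those called lower (31) numbered 18 with quantile normalization, 18 with normexp, 18 with the deposited values, 9 with only probes well above background on all arrays, 19 within slide 2 and 24 to 37 with 1 array left out. Higher-then-lower members called higher (0) numbered 25 with the slide block and 9 within slide 2, and 0 on leaving out any array. Those called lower (36) numbered 23 with only probes well above background on all arrays, 14 with the slide block, 10 within slide 2 and 21 to 73 with 1 array left out. Over all tested probes, within slide 2 gave 5337 higher and 6480 lower. Leaving out 1 array gave 10175 to 14317 higher and 11075 to 20984 lower over all tested probes. MOUSELNCRNA_63243 turned to -0.23 within slide 2. The fit within slide 2 has 4 arrays and 1 day 0 array, which is assumed to vary like the day 7 pair, so its counts say nothing about stability; the cause of the other changes was not tested.

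The replicate numbers do not pair the pools: deviations of same-numbered arrays correlated between -0.297 and 0.590, highest between days 0 and 3, which share slides. Every day holds the same replicate numbers, so a replicate block cannot change the 156 and 119 probes of the rule. In the day 7 fit with this block, 12992 probes were called higher and 16341 lower. Dim probes limit the folds: 45 and 50 members were at background on their dim day.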
